A study of Mus musculus with 31 samples.

Results

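A set of 35 genes that mark macrophages, granulocytes and red blood cells was followed in tissue cut from developing mouse olfactory and trigeminal nerves. The genes were taken by symbol from the 47729 listed and comprised 19 macrophage genes (7 pan-myeloid, 4 microglia-enriched, 5 of tissue macrophages and 3 encoding complement C1q), 8 granulocyte genes, and 7 globin genes with Alas2. All 35 had a row of counts, and 34 passed the filter on low counts and were tested; Elane did not. The question asked of them was how much blood and immune RNA each piece of nerve held, and whether that amount differed between stages and between nerve compartments.

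The study profiled glia of the olfactory system, called olfactory ensheathing cells, by RNA-seq of laser-microdissected tissue from embryos that carried the Sox10:H2BVenus transgene, a bacterial artificial chromosome that labels nuclei of Sox10-expressing glia. Every group carried the transgene and none was treated. Stages are given in embryonic days (E). At E16.5 the groups were olfactory nerve (n = 4), outer olfactory nerve layer (ONL, n = 4), inner ONL (n = 4) and trigeminal nerve (n = 3). Pieces within such a group came from different embryos, but compartments of a stage were cut from the same embryos, and the labels do not say which pieces share one. Earlier groups were olfactory nerve at E11.5 (4 pieces from 2 embryos), olfactory nerve at E13.5 (7 pieces from 4 embryos) and ONL at E13.5 (5 pieces from 4 embryos), so that p-values over early pieces are too small to stand for embryos. Each piece pooled cuts from several sections and included neighbouring tissue, and the inner and outer ONL were told apart by position only. Totals ran from 3512627 counts (library labelled E11.5_ON1) to 36705535 counts (library labelled E13.5_ONL2). Levels are given as CPM, the usual count scaled to library size, here after TMM scaling. Differences are log2 values from 1 edgeR fit of all 31 libraries, with Benjamini-Hochberg adjustment over 19332 genes and a threshold of 0.05. Each standard error (SE) was worked back from the log2 value and its test statistic, and is therefore approximate.

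The early libraries came with 2 conflicting assignments. The study's published group means could be rebuilt exactly only when 10 of the 31 libraries were placed in a group other than that of their label, while the other 21 kept theirs. In this published grouping, the libraries labelled E13.5_ONL2 to E13.5_ONL5 were E11.5 olfactory nerve, the libraries labelled E11.5_ON1 to E11.5_ON4 together with E13.5_ON1 were E13.5 ONL, and E13.5_ONL1 joined E13.5_ON2 to E13.5_ON7 as E13.5 olfactory nerve. Results below use the published grouping, with values for the libraries grouped by label beside the results on E11.5 and E13.5 tissue. E16.5 libraries had the same group in both.

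Macrophages enter the mouse embryo from the yolk sac and depend on the receptor encoded by Csf1r, whose ligands are CSF1 and IL-34. Microglia are the macrophages of the brain itself, and macrophages that express Lyve1, Mrc1 and Cd163 typically lie along vessels and in connective tissue. Red cells switch their haemoglobin during gestation: primitive red cells from the yolk sac use the embryonic chains encoded by Hbb-bh1, Hbb-y and Hba-x, whereas definitive red cells from the fetal liver use the adult chains encoded by Hbb-bt, Hbb-bs, Hba-a1 and Hba-a2. Neutrophils load granules in steps, with the enzymes encoded by Mpo, Elane, Prtn3 and Ctsg made by early precursors, and Camp, Ltf, S100a8 and S100a9 expressed by later cells.

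Upstream sequences of 5 globin genes are shown because embryonic and adult genes lie side by side in each cluster. In GRCm38 the beta cluster held Hbb-bt (chr7:103812524-103813996), Hbb-bs (chr7:103826534-103828096), Hbb-bh1 (chr7:103841637-103843164) and Hbb-y (chr7:103851749-103853216), all on the minus strand. The alpha cluster held Hba-x (chr11:32276400-32278116), Hba-a1 (chr11:32283511-32284465) and Hba-a2 (chr11:32296489-32297298) on the plus strand. Of the 35 members, 27 had an upstream entry in the RefSeq table (build GRCm38.p6), and Hbb-bh1 was not among them. Each run below gives the 120 bases before the RefSeq start, 5′ to 3′ on the gene's strand, and capitals mark matches on either strand to CACCC, to the CCAAT box, to TATAA as in a TATA box, or to GATAA as in a GATA site.
Hbb-y: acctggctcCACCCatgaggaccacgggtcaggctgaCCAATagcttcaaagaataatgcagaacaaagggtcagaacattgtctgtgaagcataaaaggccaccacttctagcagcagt
Hbb-bs: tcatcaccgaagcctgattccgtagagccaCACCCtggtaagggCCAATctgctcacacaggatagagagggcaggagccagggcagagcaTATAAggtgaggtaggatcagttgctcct
Hbb-bt: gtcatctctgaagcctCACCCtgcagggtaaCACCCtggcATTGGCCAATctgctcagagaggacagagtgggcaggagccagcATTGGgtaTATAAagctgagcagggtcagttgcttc
Hba-x: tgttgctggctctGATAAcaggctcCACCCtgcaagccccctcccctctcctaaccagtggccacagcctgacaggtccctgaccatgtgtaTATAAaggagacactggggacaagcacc
Hba-a1: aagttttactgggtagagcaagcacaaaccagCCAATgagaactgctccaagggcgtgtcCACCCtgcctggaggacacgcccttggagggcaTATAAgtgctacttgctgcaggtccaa

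CACCC occurred in all 5 of these stretches and CCAAT in all but Hba-x, whereas 31.7% and 21.3% of 32851 promoter windows of the same length held them. TATAA occurred in all but Hbb-y, against 11.8% of windows, and GATAA in Hba-x alone, against 10.5%. No match overlapped another, and a match is only a run of letters. The adult pair Hbb-bs and Hbb-bt was 73.9% identical over 119 aligned bases, while Hbb-y was 34.5% identical to Hbb-bs over 110 bases. Hba-a2 is not printed because it was 100% identical to Hba-a1 over 117 bases.

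The globin chains counted differed between stages. Hbb-bh1, the earliest embryonic beta chain, stood at 169.8, 1374, 2401 and 1453 CPM in the 4 libraries of E11.5 nerve. In E13.5 nerve it ran from 24.3 to 84.9 CPM with a median of 39.4 CPM (n = 7), and in E13.5 ONL from 9.68 to 36.5 CPM. The E11.5 values did not overlap those of either E13.5 group. Hbb-bh1 was lower in E13.5 than in E11.5 nerve by a log2 difference of −4.80 ± 0.46 (SE, adjusted p = 2.7e-09, edgeR).

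Hba-x, the embryonic alpha chain, was also lower at E13.5, with a log2 difference of −2.32 ± 0.43 (SE, adjusted p = 9.7e-05). It stood at 336, 3278, 4336 and 2513 CPM in E11.5 nerve and at 310.0 to 802 CPM in E13.5 nerve. The lowest E11.5 library, labelled E13.5_ONL2, fell within the E13.5 range. Hbb-y, the other embryonic beta chain, showed no such step: its level was 675, 7024, 10295 and 6479 CPM at E11.5 and 4925 to 8359 CPM at E13.5.

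Adult beta chains moved the other way. Hbb-bs stood at 0.874, 8.47, 25.8 and 28.1 CPM in E11.5 nerve, below all 7 values in E13.5 nerve, which ran from 174 to 1072 CPM with a median of 636 CPM. Hbb-bs was higher at E13.5 by 5.25 ± 0.73 (log2, SE, adjusted p = 1.8e-06), and Hbb-bt by 4.76 ± 0.66 (SE, adjusted p = 1.5e-06). Hba-a1, by contrast, was already at 104, 1227, 1225 and 834 CPM at E11.5, near its 769.9 to 1568 CPM at E13.5, and did not pass the test.

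As a share of all beta-globin counts, the embryonic chains Hbb-y and Hbb-bh1 made up 99.6% ± 0.194 (SD, n = 4) in E11.5 nerve, 87.4% ± 5.39 (SD, n = 7) in E13.5 nerve and 84.7% ± 8.13 (SD, n = 5) in E13.5 ONL. They made up 1.02%, 0.747%, 0.59% and 1.32% on average in E16.5 olfactory nerve, outer ONL, inner ONL and trigeminal nerve. The trigeminal libraries differed widely, at 0.0138%, 3.13% and 0.803%. Hbb-bh1 alone gave 16.3% to 20.1% of beta-globin counts in the 4 libraries of E11.5 nerve and 0.253% to 1.36% in the other 12 early libraries. Hba-x gave 69.4% to 74.7% of alpha-globin counts in E11.5 nerve and 12.6% to 40.4% in E13.5 tissue.

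**Figure D1:**
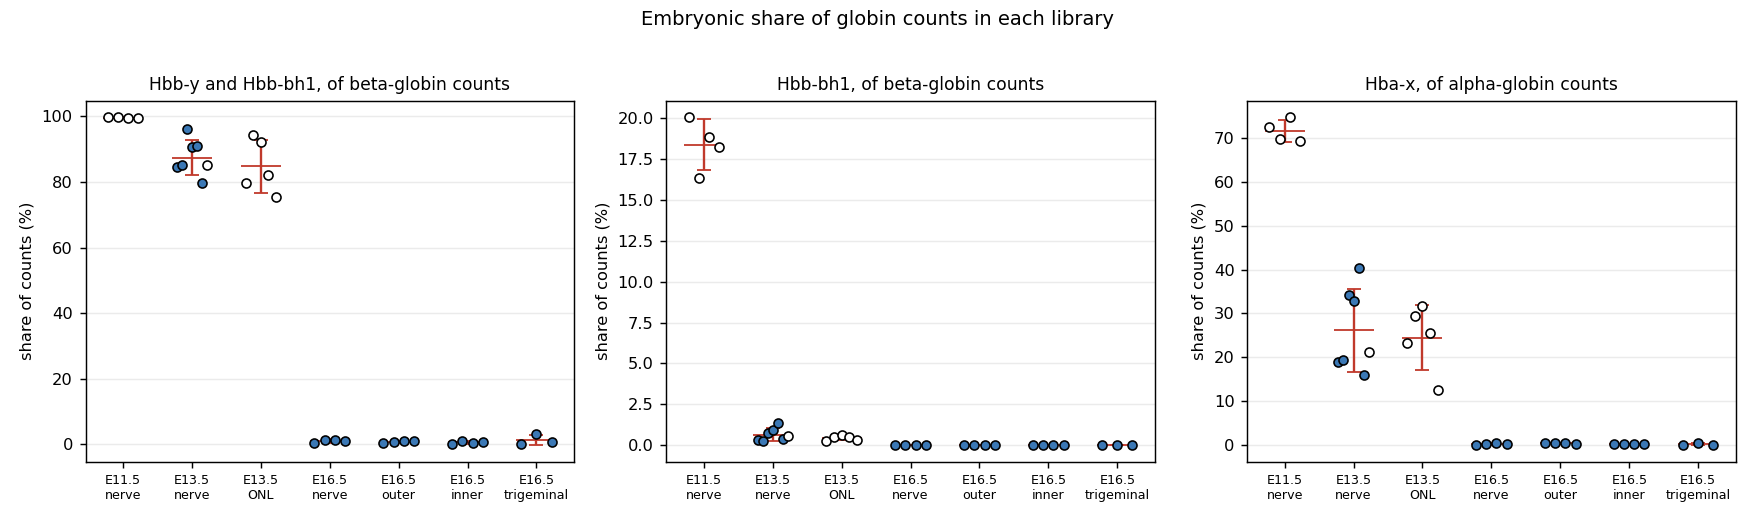
Share of globin counts from embryonic chains in each library, in percent, for 7 groups of the published grouping; points are libraries (open where the label gives another group), and red bars are the mean ± SD. Hbb-bh1 lies between 16.3% and 20.1% of beta-globin counts in the 4 E11.5 libraries and at or below 1.36% elsewhere.

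Grouped by label instead, the high Hbb-bh1 counts fell in E13.5 ONL and the E11.5 label held low ones. The libraries labelled E11.5_ON1 to E11.5_ON4 had Hbb-bh1 at 0.264% to 0.615% of beta-globin counts, and the mean embryonic beta share was then 87.0% for E11.5 nerve and 96.7% for E13.5 ONL. E13.5 against E11.5 nerve gave no called globin by label, and E13.5 ONL against nerve gave Hbb-bh1 higher by 4.58 ± 0.63 (log2, SE, adjusted p = 5.1e-05), Hba-x higher by 2.11 ± 0.48 (SE, adjusted p = 0.0048) and Hbb-bt lower, with a log2 difference of −2.25 ± 0.79 (SE, adjusted p = 0.047). In the published grouping no globin differed between E13.5 ONL and nerve at the threshold.

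Between E13.5 and E16.5 the embryonic chains almost disappeared from the nerve. Hbb-y stood at 14.2, 14.7, 24.4 and 17.3 CPM in E16.5 olfactory nerve, far below the lowest E13.5 value, with a log2 difference of −8.61 ± 0.87 (SE, adjusted p = 2.1e-08). Hbb-bh1 differed by −7.20 ± 0.75 (log2, SE, adjusted p = 3.3e-08) and Hba-x by −6.49 ± 0.63 (SE, adjusted p = 9.6e-09). The outer ONL at E16.5 against ONL at E13.5 gave −8.19 ± 0.86 for Hbb-y, −6.39 ± 0.77 for Hbb-bh1 and −4.99 ± 0.59 for Hba-x (log2, SE). By label, these 3 chains were lower at E16.5 in both comparisons too, with Hbb-bh1 in the ONL at −11.77 ± 1.17 (SE).

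Of the 4 adult chains, 2 were higher in the ONL at E16.5 than at E13.5: Hbb-bs by 1.67 ± 0.60 (log2, SE, adjusted p = 0.025) and Hba-a1 by 1.28 ± 0.44 (SE, adjusted p = 0.020). Hbb-bt (adjusted p = 0.079) and Hba-a2 (adjusted p = 0.38) did not pass, and no adult chain was called in the nerve over this interval. Hbb-bs lost the call on leaving out any 1 of 4 of the 9 libraries (labelled E11.5_ON2, E11.5_ON3, E16.5_oONL1 and E16.5_oONL3), with log2 differences of 1.33 to 1.59, and Hba-a1 without E11.5_ON1 (1.10) or E16.5_oONL1 (0.99). By label Hbb-bs was called at 3.41 ± 0.96 and Hba-a1, at 1.11, was not (adjusted p = 0.052). Alas2, the enzyme that starts haem synthesis in red cell precursors, was higher at E16.5 by 1.87 ± 0.49 (SE, adjusted p = 0.0028) in the ONL and by 1.39 ± 0.44 (SE, adjusted p = 0.018) in the nerve. The nerve call for Alas2 was lost without E16.5_ON1, where it stood at 218 CPM against 75.0 to 117 CPM in the other 3 libraries (0.99, adjusted p = 0.13). By label Alas2 was called at 1.70 ± 0.50 in the ONL and at 1.31 ± 0.45 in the nerve (log2, SE).

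Other red cell genes did not follow the adult globins. Of the 17 on the list, 16 were tested, and 11 were lower and none higher in E13.5 than in E11.5 nerve, against 16.4% of all tested genes lower there. Hemgn, a regulator of red cell precursors, was at −6.23 ± 0.85 (log2, SE, adjusted p = 1.3e-06) and Gata1, the master regulator of red cell and platelet lineages, at −3.91 ± 0.74 (SE, adjusted p = 0.00012). By label, 1 of the 16 was called in that comparison.

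Paralogous adult globins share much of their sequence, so that reads from shared stretches cannot be placed by sequence alone. How the counting treated such reads is not given in the sources used here. If they were left out, adult counts would be too low and the embryonic shares above too high. Of all 50-base windows of Hba-a2 transcripts, 86.9% also occurred in Hba-a1, and 58.3% of those of Hbb-bt occurred in Hbb-bs. The embryonic chains shared no such window with any other globin. In E13.5 nerve, Hba-a2 was at 0.888 CPM (12 counts) in the library labelled E13.5_ON6 and at 259.7 to 376 CPM in the other 6, although Hba-a1 in that library was at 769.9 CPM.

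At E16.5, adult globin levels varied widely within compartments, and their calls depended on the fit. In olfactory nerve Hba-a1 stood at 3812, 1105, 1257 and 1192 CPM, in outer ONL at 3103, 1925, 1808 and 1099 CPM, in inner ONL at 1051, 689.6, 1186 and 596 CPM, and in trigeminal nerve at 4013, 2204 and 2635 CPM. The 2 lowest values were in inner ONL, whose range overlapped that of the nerve, and all 3 trigeminal libraries lay above all 4 of inner ONL. Among 8 red cell members none was called between olfactory nerve and either ONL part or the trigeminal nerve, and inner against outer ONL gave only Hba-x, with a log2 difference of −1.81 ± 0.58 (SE, adjusted p = 0.032), a call lost in 7 of the 8 fits that left out 1 library (all but the one without E16.5_oONL4). When only the 15 E16.5 libraries were fitted, an alternative chosen after the data were seen, Hba-a1 (−1.10, log2, adjusted p = 0.027), Hba-a2 (−1.35, adjusted p = 0.021) and Hbb-bs (−1.25, adjusted p = 0.026) were lower in inner ONL than in nerve. Against outer ONL the same fit called Hba-a1 (−1.12, adjusted p = 0.048), Hba-a2 (−1.41, adjusted p = 0.034) and Hba-x (−1.76, adjusted p = 0.017) lower in inner ONL.

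Macrophage genes were counted at every stage, and many were higher in E16.5 than in E13.5 nerve. Summed over the 7 pan-myeloid genes, levels averaged 79.7 ± 52.3 CPM in E11.5 nerve (SD, n = 4), 131 ± 40.1 CPM in E13.5 nerve (n = 7) and 354 ± 125 CPM in E16.5 nerve (n = 4). By label the first 2 means were 140 ± 46.8 and 127 ± 35.6 CPM (SD). Csf1r, the receptor on which macrophages depend, stood at 0.238, 18.5, 18.6 and 28.5 CPM at E11.5, 18.5 to 52.9 CPM at E13.5 (median 31.1 CPM) and 165, 87.4, 168 and 69.3 CPM at E16.5. All 4 E16.5 values lay above all 7 E13.5 values. By label Csf1r ran from 28.3 to 61.5 CPM at E11.5 and from 18.5 to 46.8 CPM in E13.5 nerve. In bulk tissue, more macrophages and more RNA per macrophage cannot be told apart.

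From E13.5 to E16.5 in the olfactory nerve, 14 of the 34 tested members were higher and 3 lower, against 15.1% and 13.6% of all tested genes. Of those 14, 13 were on the macrophage lists, among them Tmem119, whose own pattern is given below. The 3 lower ones were the embryonic globins. Csf1r rose by 1.86 ± 0.46 (log2, SE, adjusted p = 0.0027), Ptprc, which encodes the leukocyte antigen CD45, by 1.49 ± 0.44 (SE, adjusted p = 0.010), and C1qb by 1.41 ± 0.34 (SE, adjusted p = 0.0024). All 3 C1q genes and Laptm5, Fcgr3, Cx3cr1, Adgre1, Mrc1 and Tmem119 passed as well, while Spi1, Tyrobp, Itgam, Aif1, P2ry12 and Sall1 did not. By label, 12 were higher and 3 lower, against 12.4% and 12.7% of all genes. The Ptprc call was lost without E16.5_ON1 (1.28, adjusted p = 0.051) or E16.5_ON3 (1.17, adjusted p = 0.071).

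Of 25 other macrophage genes, 14 were higher and none lower over the same interval, against 15.1% and 13.6% of all tested genes. That list was chosen with earlier results of these data known. F13a1, which encodes a clotting factor subunit made by tissue macrophages, was at 4.92 ± 0.51 (log2, SE, adjusted p = 3.6e-08). Cd14, a co-receptor for bacterial lipopolysaccharide, was at 1.93 ± 0.42 (SE, adjusted p = 0.00081). By label 14 were higher too, against 12.4% of all genes, with F13a1 at 4.34 ± 0.57 (SE). Endothelial genes rose together with them: 5 of 8 were higher, and their summed level went from 394 to 571 CPM at E13.5 to 633 to 1176 CPM at E16.5. By label 4 of 8 were higher, from sums of 337 to 571 CPM at E13.5. Across all 31 libraries the summed pan-myeloid and endothelial levels had a Pearson correlation of 0.923 on the log scale, as a description of libraries that share groups and depth. The part of vessels in the macrophage result was not tested.

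**Figure D2:**
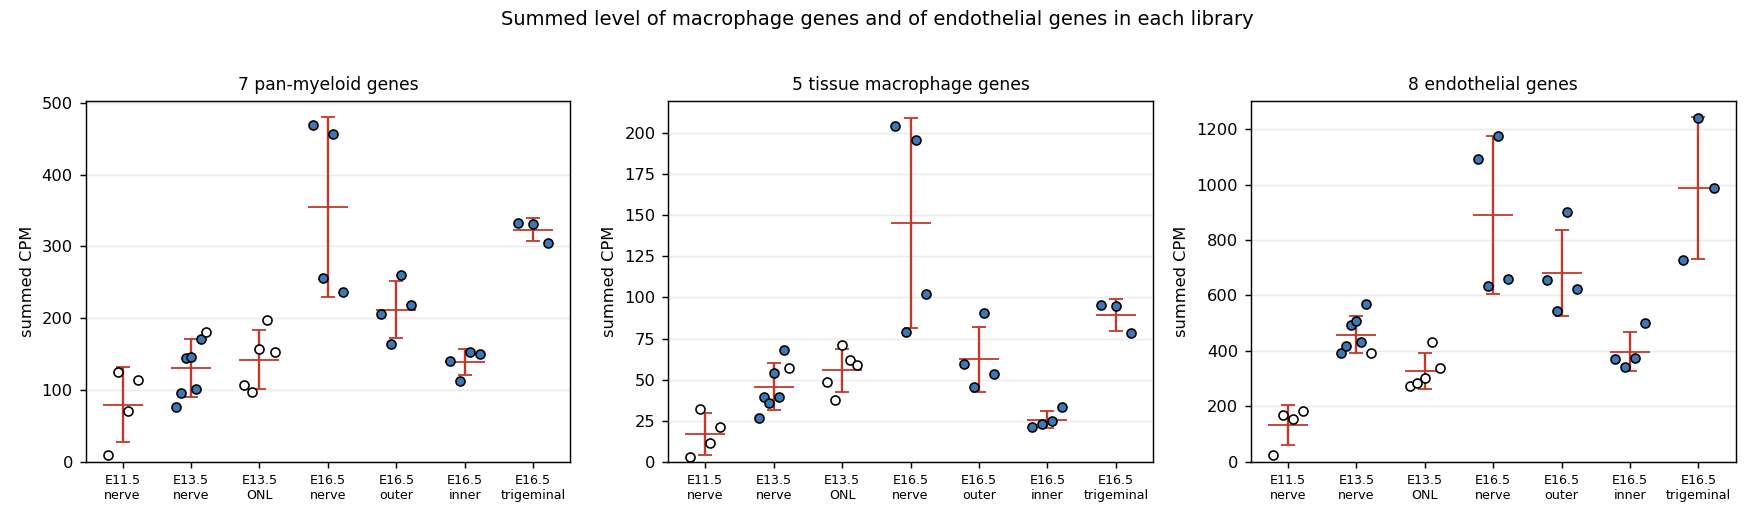
Summed levels in CPM of 7 pan-myeloid genes, 5 tissue macrophage genes and 8 endothelial genes in each library (published grouping; open points have another label; red bars are the mean ± SD). The pan-myeloid sum averages 79.7 CPM in E11.5 nerve, 354 CPM in E16.5 nerve and 139 CPM in E16.5 inner ONL.

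From E11.5 to E13.5 some macrophage genes passed the test in the nerve and others did not, and differences between genes were not tested. None of the 7 pan-myeloid genes passed the test, while Adgre1, which encodes the surface protein F4/80, rose by 2.59 ± 0.49 (log2, SE, adjusted p = 0.00014) and P2ry12, a purine receptor of microglia, by 3.20 ± 0.60 (SE, adjusted p = 0.00012). Adgre1 stood at 1.11, 0.461, 1.82 and 4.88 CPM at E11.5 and at 6.23 to 22.5 CPM at E13.5, with no overlap. P2ry12 stood at 0, 0.0814, 1.24 and 1.65 CPM at E11.5 and at 3.79 to 10.97 CPM at E13.5, also with no overlap. Mrc1, the mannose receptor, rose by 1.42 ± 0.46 (SE, adjusted p = 0.015), a call lost without the library labelled E13.5_ONL4 (1.24, adjusted p = 0.059).

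C1qa rose by 1.03 ± 0.38 (log2, SE, adjusted p = 0.034) over the same interval, and lost its call on leaving out any 1 of 4 of the 11 libraries, labelled E13.5_ON7, E13.5_ONL1, E13.5_ONL2 and E13.5_ONL4, with log2 differences of 0.65 to 0.96. C1qb was at 9.88 to 94.6 CPM at E11.5 and 27.4 to 74.1 CPM at E13.5, and did not pass. In all, 11 of 34 members were higher and 4 lower at E13.5, against 20.2% and 16.4% of all genes. By label, 1 was higher (Tmem119) and 1 lower (Sall1), against 9.29% and 8.18%, and Adgre1 and P2ry12 were at 0.01 and 0.20 on the log2 scale. The E11.5 library labelled E13.5_ONL2 held less blood and macrophage RNA than the other 3, with Csf1r at 0.238 CPM (9 counts) and Hbb-y at 675 CPM. Without it, 10 members were higher and 6 lower.

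Lyve1, Cd163 and Mrc1 are markers of macrophages along vessels and in connective tissue. Lyve1 had 0 counts in all 4 libraries of E11.5 nerve, 0.189 to 2.57 CPM in E13.5 nerve and 42.1, 14.5, 44.6 and 22.8 CPM in E16.5 nerve. The E13.5 mean was at least 16.1-fold above 3 counts per E11.5 library (adjusted p = 1.2e-05), and the rise to E16.5 was 4.32 ± 0.57 (log2, SE, adjusted p = 2.8e-06). Cd163, a haemoglobin scavenger receptor, had 0 counts at E11.5, 0 counts in 5 of the 7 E13.5 nerve libraries with 2 and 6 counts in the others, and 9.71, 0.927, 5.20 and 3.98 CPM in E16.5 nerve (5.80 ± 1.13, log2, SE, adjusted p = 0.00035). Mrc1 was already at 0.794 to 18.8 CPM at E11.5 and rose again by 1.59 ± 0.42 (SE, adjusted p = 0.0046) from E13.5 to E16.5. By label, Lyve1 was at 4.46 to 14.0 CPM in all 4 E11.5 libraries and its change to E13.5 was −1.69 (adjusted p = 0.22), while the rises in the nerve to E16.5 were 3.65 ± 0.92 for Lyve1, 5.92 ± 1.16 for Cd163 and 1.54 ± 0.45 for Mrc1 (log2, SE), all called.

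Lyve1 also marks lymphatic endothelium. Across the 15 E16.5 libraries its level correlated with Mrc1 at r = 0.922 and with the summed lymphatic list (Prox1, Flt4, Pdpn and Ccl21a) at r = 0.223, as a description of libraries from 4 compartments. Over all 31 libraries the values were 0.753 for Mrc1 and 0.594 for the lymphatic list. Lymphatic genes summed to 41.0 to 78.8 CPM in E16.5 nerve, 47.6 to 74.5 CPM in outer ONL, 40.1 to 54.0 CPM in inner ONL and 71.3 to 85.0 CPM in trigeminal nerve, where Lyve1 was only 3.86, 6.42 and 5.33 CPM.

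At E16.5 many macrophage genes were lower in the inner ONL than in the olfactory nerve. Against olfactory nerve, 15 of 34 members were lower there and 1 higher, while 17.8% and 17.7% of all genes were lower and higher. Of those 15, 14 were on the macrophage lists: 5 of 7 pan-myeloid, all 5 tissue macrophage and all 3 C1q genes, and Tmem119. Tmem119 had a pattern of its own, given below. Mrc1 stood at 4.30, 7.44, 4.39 and 9.58 CPM in inner ONL against 88.1, 31.2, 96.4 and 42.8 CPM in nerve, with no overlap (log2 difference −3.32 ± 0.53, SE, adjusted p = 1.0e-05). Lyve1 differed by −3.54 ± 0.68 (SE, adjusted p = 0.00013) and Cd163 by −3.21 ± 1.17 (SE, adjusted p = 0.032), the latter lost on leaving out E16.5_ON1, E16.5_iONL1, E16.5_iONL2 or E16.5_iONL3 (−2.66 to −3.08).

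Pan-myeloid and C1q genes were among the lower ones. Tyrobp, an adaptor of activating receptors, stood at 16.3, 10.8, 22.6 and 19.9 CPM in inner ONL against 77.0, 43.3, 59.0 and 42.8 CPM in nerve (−1.67 ± 0.39, log2, SE, adjusted p = 0.0010). C1qa stood at 27.0, 19.5, 35.2 and 23.7 CPM against 91.8, 55.3, 69.4 and 45.6 CPM (−1.31 ± 0.42, SE, adjusted p = 0.014), with the call lost without E16.5_ON1 (−1.11, adjusted p = 0.055). Ptprc differed by −2.22 ± 0.53 (SE, adjusted p = 0.0013). Without E16.5_ON1 the count of called members fell to 9. Of the 25 other macrophage genes 15 were lower and none higher, against 17.8% and 17.7% of all genes. F13a1 was at −3.84 ± 0.61 and Olfml3, a secreted protein known from microglia, at −3.63 ± 0.25 (SE). Olfml3 did not follow Csf1r in every library, and nor did some other genes of the list. In the library labelled E13.5_ONL2, Csf1r had 9 counts, Olfml3 976, Coro1a 2796, Cyba 1346 and Mertk 716, while Cd53 had 0. The paper also cites Runx1, another gene of the list, as expressed by glia of the inner ONL. Whether macrophages held the listed transcripts was not tested. Of 8 endothelial genes 6 were lower, with sums of 341 to 500 CPM in inner ONL and 633 to 1176 CPM in nerve, and their part in the macrophage difference was not tested.

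In outer ONL against the nerve, 4 of 34 members were lower and none higher. Among all genes 11.8% were lower and 10.2% higher, so that the members' share of lower calls was that of all genes. These were Ptprc (−1.90 ± 0.52, log2, SE, adjusted p = 0.0082), Tmem119, Lyve1 (−1.70 ± 0.62, SE, adjusted p = 0.049) and Prtn3. The Ptprc values of 4.14, 2.82, 3.98 and 2.62 CPM lay below the nerve's 17.8, 4.45, 21.6 and 6.64 CPM. Lyve1 lost its call in 6 of the 8 fits that left out 1 library (all but those without E16.5_ON2 and E16.5_oONL3), with log2 differences of −1.49 to −1.89 in those 6, and the count of called members fell to 2 without E16.5_ON1, E16.5_ON4, E16.5_oONL1 or E16.5_oONL2.

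This comparison depended on which libraries were fitted, and what moved the calls was not tested. In the fit of only the 15 E16.5 libraries, 18 members were lower and none higher in outer ONL, while 15.4% and 10.3% of all genes were. They included 6 of 7 pan-myeloid and all 3 C1q genes, with C1qb at −0.93 (log2, adjusted p = 0.00089) and Tyrobp at −0.88 (adjusted p = 0.0076). Same-numbered nerve and outer ONL libraries deviated together weakly, though the labels do not say that a shared number means a shared embryo. When these 2 groups were fitted with that number blocked, 17 members were lower and none higher, against 16.1% and 15.3% of all genes. The E16.5-only fit called 22 lower and 2 higher members in inner ONL against nerve (21.2% and 19.2% of all genes), including P2ry12 at 0.85 (adjusted p = 0.026).

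**Figure D3:**
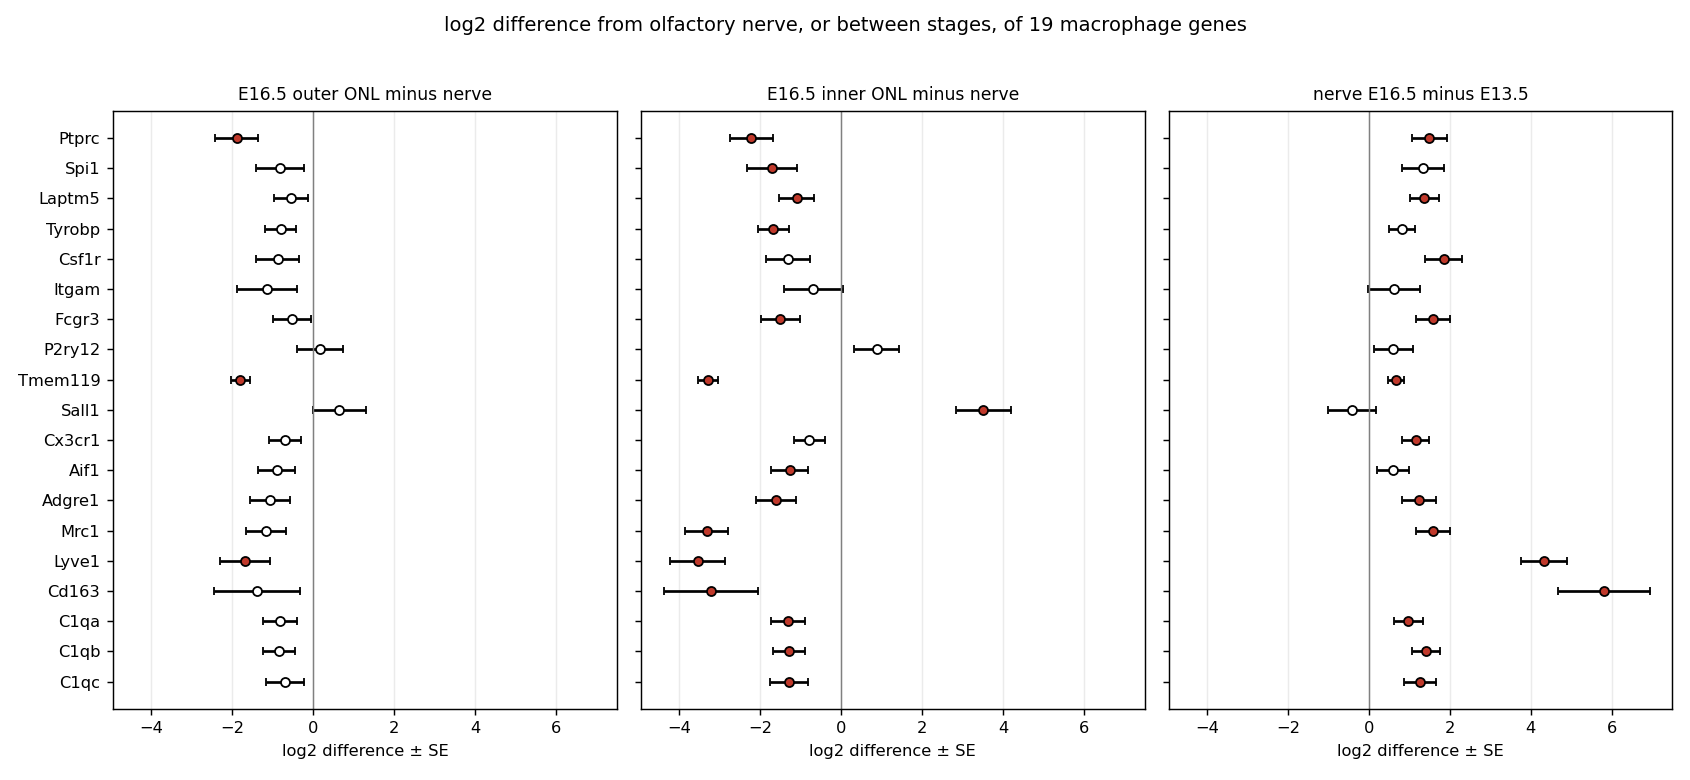
log2 differences ± SE of 19 macrophage genes for E16.5 outer ONL minus olfactory nerve, E16.5 inner ONL minus olfactory nerve and olfactory nerve at E16.5 minus E13.5; filled points passed an adjusted p of 0.05. Mrc1, Lyve1 and Cd163 lie between −3.54 and −3.21 for inner ONL, and Sall1 lies on the other side of 0 at 3.52.

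Inner against outer ONL gave 3 lower and 1 higher member, beside 5.94% lower and 8.2% higher among all genes. Mrc1 was lower in inner ONL by a log2 difference of −2.15 ± 0.52 (SE, adjusted p = 0.0037), with outer values of 23.5, 21.4, 43.3 and 26.2 CPM that did not overlap the inner ones. Tmem119 and Hba-x were the other lower members, and Sall1 the higher. In the E16.5-only fit, 8 were lower and 1 higher (7.54% and 10.1% of all genes). Ms4a7 and F13a1, both of tissue macrophages, were at −2.51 ± 0.67 and −2.28 ± 0.57 (log2, SE) among the other macrophage genes.

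In the ONL over time, few macrophage genes passed the test. Between E13.5 ONL and E16.5 outer ONL none of the 7 pan-myeloid or 3 C1q genes was called. Csf1r stood at 38.4, 28.3, 34.9, 61.5 and 46.8 CPM at E13.5 and 57.2, 39.5, 105 and 65.1 CPM at E16.5. Cd163 rose by 3.00 ± 1.17 (log2, SE, adjusted p = 0.040) from counts of 0, 0, 13, 2 and 0, and lost the call in 6 of the 9 fits that left out 1 library (2.50 to 2.97), all but those without the libraries labelled E11.5_ON3, E16.5_oONL2 or E16.5_oONL4. Over all members 5 were higher and 8 lower, against 21.9% and 20% of all genes. By label, 10 were higher and 6 lower, against 18.2% and 17%, and the higher ones then included Laptm5, Csf1r and Fcgr3, with Cd163 at 0 counts in all 5 libraries labelled E13.5 ONL (adjusted p = 0.00041).

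At E13.5 itself, few macrophage genes passed between ONL and nerve: 2 members were higher in ONL (Sall1, Lyve1) and 1 lower (Tmem119), against 15.4% and 16.1% of all genes. Lyve1 stood at 5.53, 4.46, 14.0, 7.47 and 8.48 CPM in ONL, above all 7 nerve values (2.38 ± 0.54, log2, SE, adjusted p = 0.00099). By label 3 were higher and 2 lower, against 8.88% and 8.81%, and Lyve1 was at −2.69 (adjusted p = 0.075).

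Whether the step from nerve to ONL changed between stages was tested as an interaction. Of 34 members 3 passed, all lower, while 6.74% of all genes were lower and 5.6% higher. Lyve1, higher in ONL at E13.5 and lower in outer ONL at E16.5, gave −4.08 ± 0.83 (log2, SE, adjusted p = 0.0013). Sall1 gave −3.50 ± 0.85 (SE, adjusted p = 0.0050). Ptprc gave −2.003 ± 0.67 (SE, adjusted p = 0.046), which failed the threshold in 12 of the 20 fits that left out 1 library (−1.65 to −2.13), each E16.5 outer ONL library among them. By label only Tmem119 (−2.94 ± 0.40, SE) and Prtn3 (−2.29 ± 0.61, SE) passed, both lower, against 5.71% lower and 6.83% higher among all genes.

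The trigeminal nerve, which holds Schwann cells in place of olfactory ensheathing cells, had some macrophage genes at levels near those of the olfactory nerve and others apart from them. Csf1r stood at 93.7, 116 and 95.6 CPM and C1qb at 115, 86.8 and 95.04 CPM, within the ranges of the olfactory nerve. Spi1 lay above them, at 14.1 to 14.6 CPM against 5.26 to 12.9 CPM in olfactory nerve. Itgam did too, at 2.65 to 3.64 CPM against 1.11 to 2.01 CPM, though neither gene was called. In olfactory against trigeminal nerve 2 members were higher and 3 lower, against 13% and 10.6% of all genes. Lyve1 was higher by 2.58 ± 0.71 (log2, SE, adjusted p = 0.0086), with 3.86, 6.42 and 5.33 CPM in trigeminal nerve below all 4 olfactory values, and the other higher one was Sall1. In the E16.5-only fit 5 were higher and 5 lower (15.2% and 11.7% of all genes), with Mrc1 higher by 1.18 (adjusted p = 0.025) and Cx3cr1 by 0.65 (adjusted p = 0.016).

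Against the trigeminal nerve, 6 members were lower and 1 higher in outer ONL, beside 12.3% lower and 13.54% higher among all genes. Ptprc was at −2.45 ± 0.55 (log2, SE, adjusted p = 0.0011) and Aif1, a calcium-binding protein of macrophages, at −1.56 ± 0.48 (SE, adjusted p = 0.014), the latter lost without E16.5_TN1 (−1.37, adjusted p = 0.064). In the E16.5-only fit 14 were lower and 1 higher (16.2% and 15.1% of all genes). These comparisons share the outer ONL or the trigeminal libraries with those above.

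The 4 genes often used to mark microglia did not move as a group. P2ry12 stood in E16.5 nerve at 13.4, 12.5, 9.48 and 5.25 CPM, in outer ONL at 14.8, 9.85, 8.32 and 12.4 CPM, in inner ONL at 17.4, 20.6, 23.5 and 13.2 CPM and in trigeminal nerve at 18.7, 13.9 and 10.1 CPM. It was thus not lower in inner ONL, where 14 other genes of the macrophage lists were. P2ry12 overlaps Med12l on the opposite strand, which was at 4.32 to 8.65 CPM in inner ONL and 9.89 to 18.8 CPM in nerve. Cx3cr1, the fractalkine receptor, stood at 18.04 to 19.7 CPM in inner ONL and 24.4 to 43.5 CPM in nerve, and rose in the nerve from E13.5 to E16.5 by 1.16 ± 0.33 (log2, SE, adjusted p = 0.0093).

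Tmem119, a membrane protein known from microglia and from bone-forming cells, had quite another pattern. In E16.5 olfactory nerve it stood at 139, 135, 127 and 114 CPM, in outer ONL at 24.6, 38.0, 47.8 and 36.9 CPM, in inner ONL at 16.9, 11.2, 10.6 and 13.6 CPM and in trigeminal nerve at 207, 190.3 and 193 CPM. No 2 of these groups overlapped. The log2 differences were −1.80 ± 0.23 for outer ONL against nerve (SE, adjusted p = 8.5e-07), −3.29 ± 0.25 for inner ONL against nerve, −1.49 ± 0.24 for inner against outer ONL and −2.42 ± 0.25 for outer ONL against trigeminal nerve.

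Tmem119 was also high where P2ry12 was nearly absent. In E11.5 nerve it stood at 102, 157, 191 and 194 CPM, with P2ry12 at or below 1.65 CPM, and it was lower in E13.5 nerve by a log2 difference of −1.01 ± 0.20 (SE, adjusted p = 0.00018). At E13.5 it was lower in ONL (8.27 to 18.7 CPM) than in nerve (59.5 to 104 CPM), by −2.60 ± 0.21 (SE, adjusted p = 7.1e-11), and it rose to E16.5 in nerve by 0.68 ± 0.20 and in ONL by 1.48 ± 0.22 (log2, SE). By label the ONL to nerve difference at E13.5 was 1.14 ± 0.25, the change from E11.5 to E13.5 nerve 2.54 ± 0.31, and that of the ONL to E16.5 −2.02 ± 0.31 (log2, SE), each in the other direction and called.

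Across the 15 E16.5 libraries Tmem119 correlated with P2ry12 at r = −0.450 and with a list of bone-forming cell genes, added after the values were seen, at r = 0.838. That list summed to 336 to 1084 CPM in trigeminal nerve, 72.0 to 95.97 CPM in the olfactory one, 23.2 to 48.1 CPM in outer ONL and 21.1 to 24.95 CPM in inner ONL. Over all 31 libraries the values were −0.255 and 0.537. They describe libraries that share compartments, and the part of bone-forming tissue in the Tmem119 levels was not tested.

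Sall1, a transcription factor that within the immune system marks microglia and is also expressed by neural progenitors, stood at 131, 172, 110 and 69.3 CPM in the libraries labelled E11.5_ON1 to E11.5_ON4 and at 83.7 CPM in E13.5_ON1, the 5 libraries of E13.5 ONL. In E13.5 nerve it ran from 2.57 to 11.4 CPM, so that it was higher in ONL by 4.15 ± 0.55 (log2, SE, adjusted p = 5.1e-07). At E16.5 it stood at 57.9, 86.1, 38.8 and 35.7 CPM in inner ONL, 1.53 to 17.2 CPM in outer ONL, 2.86 to 7.36 CPM in olfactory nerve and 0 to 1.33 CPM in trigeminal nerve. Inner ONL exceeded nerve by 3.52 ± 0.69 (SE, adjusted p = 0.00013) and outer ONL by 2.87 ± 0.66 (SE, adjusted p = 0.0025). Outer ONL and olfactory nerve exceeded trigeminal nerve by 3.73 ± 0.86 and 3.08 ± 0.85 (SE).

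From E13.5 ONL to E16.5 outer ONL, Sall1 fell, with a log2 difference of −3.93 ± 0.68 (SE, adjusted p = 2.5e-05). Sall1 moved with genes of forebrain cells, a list added after the values were seen, which correlated with it at r = 0.965 over the 15 E16.5 libraries and at 0.893 over all 31. The forebrain genes summed to 619 to 798 CPM in E13.5 ONL, 34.1 to 75.8 CPM in E13.5 nerve, 99.8 to 252 CPM in inner ONL and 1.12 to 3.20 CPM in trigeminal nerve. Sall1 and P2ry12 correlated at r = 0.334 and 0.0911 over the same libraries. By label Sall1 was lower in E13.5 ONL than in nerve (−2.28 ± 0.76, log2, SE, adjusted p = 0.038) and lower in E13.5 than in E11.5 nerve (−2.72 ± 0.73, SE, adjusted p = 0.010), and its change in the ONL to E16.5 was 0.98 (adjusted p = 0.37). The part of forebrain tissue in the Sall1 levels was not tested.

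**Figure D4:**
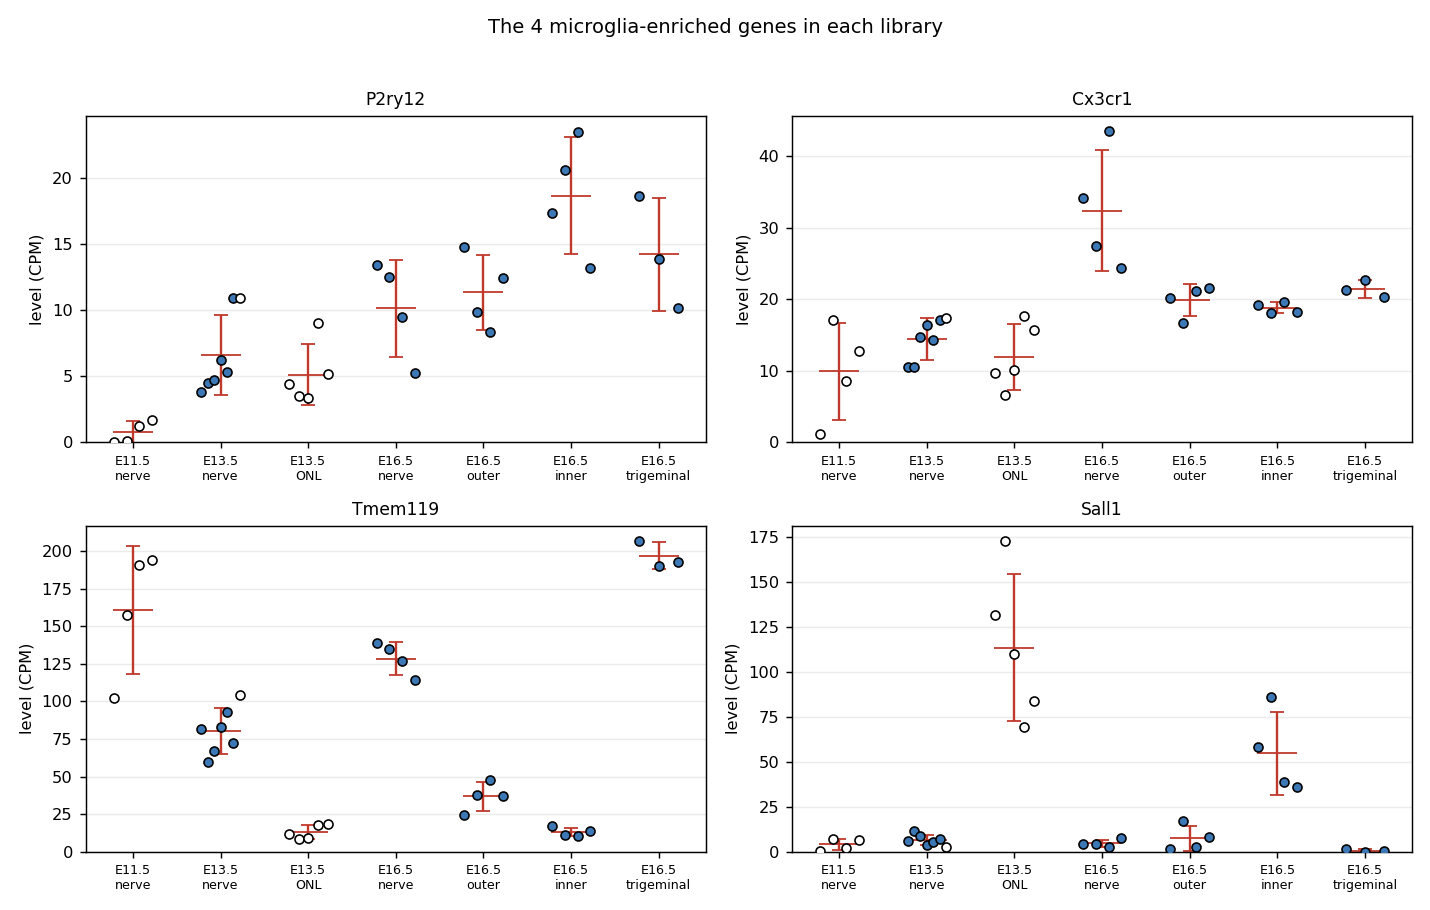
Levels in CPM of P2ry12, Cx3cr1, Tmem119 and Sall1 in each library of 7 groups (published grouping; open points have another label; red bars are the mean ± SD). Tmem119 is between 102 and 194 CPM in the 4 E11.5 libraries, where P2ry12 is at or below 1.65 CPM, and Sall1 is at 69.3 to 172 CPM in E13.5 ONL.

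The ligands of the CSF1 receptor differed in opposite directions between the ONL and the olfactory nerve at E16.5. Csf1 stood at 48.8, 27.5, 50.3 and 30.8 CPM in E16.5 olfactory nerve and at 12.9 to 17.7 CPM in inner ONL (−1.30 ± 0.31, log2, SE, adjusted p = 0.0012), and was lower in outer ONL by −0.87 ± 0.31 (SE, adjusted p = 0.038). Il34 stood at 0.371, 1.24, 0.585 and 0.277 CPM in nerve, 4.83 to 5.92 CPM in outer ONL and 4.84 to 5.88 CPM in inner ONL, with no overlap (3.10 ± 0.70 and 3.13 ± 0.70, SE). The trigeminal nerve had both, Il34 at 4.07 to 5.36 CPM and Csf1 at 21.9, 36.5 and 34.6 CPM. In the olfactory nerve both were higher at E16.5 than at E13.5, Csf1 by 1.42 ± 0.26 and Il34 by 3.37 ± 0.81 (log2, SE). Il34 had 2, 0, 2, 0, 0, 1 and 0 counts in E13.5 nerve and 6, 20, 9 and 5 in E16.5 nerve. The size of its difference is therefore uncertain. By label Csf1 was called at 1.57 ± 0.32 and Il34 was not.

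Granulocyte genes differed widely between single libraries. S100a8, a calcium-binding protein abundant in neutrophils, had 0.318, 0, 0.0415 and 0 CPM in E11.5 nerve and ran from 0.817 to 332 CPM in E13.5 nerve, with a median of 17.4 CPM. All 7 E13.5 values lay above the E11.5 values. S100a8 was higher at E13.5 by 9.35 ± 1.99 (log2, SE, adjusted p = 0.00046) and S100a9, its partner, by 9.36 ± 2.03 (SE, adjusted p = 0.00057). Ltf, which encodes the granule protein lactoferrin, had 0 counts in all E11.5 libraries and in 4 of 7 E13.5 libraries. Its E13.5 mean was at least 209-fold above 3 counts per E11.5 library. That mean rested mostly on the library labelled E13.5_ONL1, at 107 CPM against at most 21.9 CPM in the others. The edgeR test between the stages gave an adjusted p of 0.0058, and by label the change of Ltf was −0.48 (log2, adjusted p = 0.90).

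The highest levels of these transcripts in E13.5 tissue were in a few libraries. In E13.5 nerve the library labelled E13.5_ONL1 held S100a8 at 332 CPM, S100a9 at 285 CPM, Camp, an antimicrobial peptide of granules, at 78.4 CPM and Ltf at 107 CPM, followed by E13.5_ON7 with 92.7, 92.7, 19.2 and 21.9 CPM. E13.5_ON4 had S100a8 at 31.1 CPM with no Ltf count, and E13.5_ON5 had S100a8 at 17.4 CPM and Ltf at 10.6 CPM. In E13.5 ONL the library labelled E11.5_ON3 held 232, 167, 36.0 and 46.1 CPM, and E13.5_ON1 held 37.6, 44.2, 9.13 and 25.9 CPM. The other 3 ONL libraries had S100a8 at or below 0.726 CPM and no Ltf count. Across all 31 libraries S100a8 correlated with S100a9 at r = 0.977 and with Csf1r at 0.329.

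Of 10 other granulocyte genes tested, 7 were higher in E13.5 than in E11.5 nerve and none lower, against 20.2% and 16.4% of all genes. The higher ones were led by Ngp, a granule protein, and Lcn2, an iron-binding granule protein. Both had 0 counts in all 4 E11.5 libraries and, with 3434 counts of Ngp and 661 of Lcn2, were highest in E13.5_ONL1. By label none of the 10 and none of the granulocyte members was called in that comparison, with S100a8 at −1.13 (log2, adjusted p = 0.67). Without the libraries labelled E13.5_ONL1 and E11.5_ON3, 15 members were again called in it.

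From E13.5 to E16.5 these transcripts were lower in the ONL in the published grouping: S100a8 differed by −4.39 ± 1.48 (log2, SE, adjusted p = 0.018), S100a9 by −3.89 ± 1.47 (SE, adjusted p = 0.033) and Camp by −4.36 ± 1.73 (SE, adjusted p = 0.043). The calls depended on single libraries. Without the library labelled E11.5_ON3 the differences were −2.02, −2.05 and −2.53, with adjusted p of 0.22, 0.24 and 0.23. By label they were −4.67, −4.29 and −5.10, with adjusted p of 0.075, 0.0995 and 0.081. S100a8 also lost its call without E16.5_oONL1 or E16.5_oONL4, S100a9 without those or E16.5_oONL3, and Camp without E13.5_ON1 or any outer ONL library. Without both E13.5_ONL1 and E11.5_ON3, 8 rather than 13 members were called in the ONL between these stages.

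At E16.5, S100a8 was at 7.05, 10.4, 11.3 and 8.57 CPM in olfactory nerve, above 0.690 to 5.34 CPM in outer ONL and 0.150 to 0.785 CPM in inner ONL. The trigeminal nerve had the highest values of that stage, at 54.5, 35.3 and 16.8 CPM. Inner ONL against nerve gave −4.64 ± 1.81 (log2, SE, adjusted p = 0.045), a call lost on leaving out any 1 of the 8 libraries (adjusted p of 0.054 to 0.0996). In the E16.5-only fit it was −4.67 (adjusted p = 1.3e-05), and olfactory against trigeminal nerve gave −1.87 (adjusted p = 0.0099), which the fit of all 31 libraries did not call (adjusted p = 0.35).

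**Figure D5:**
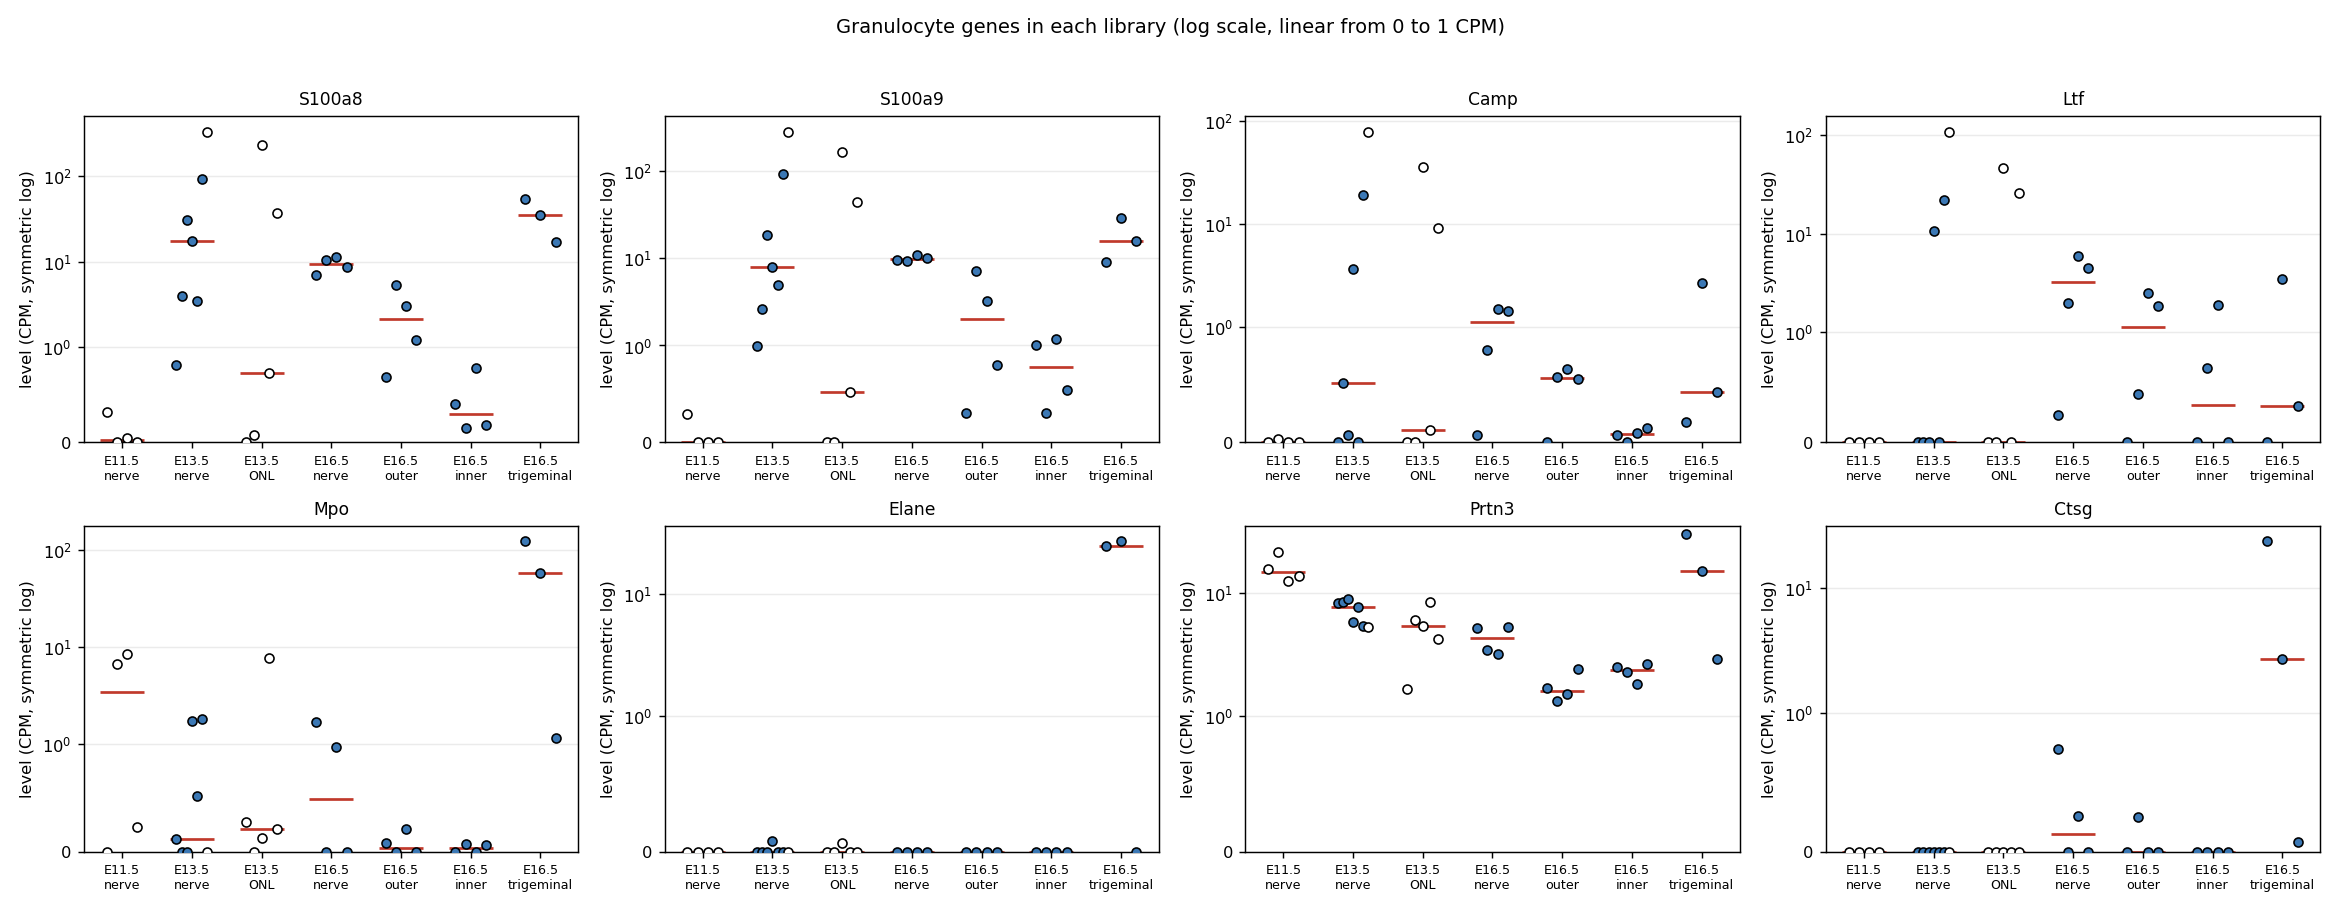
Levels in CPM of 8 granulocyte genes in each library, on a log axis that is linear from 0 to 1 CPM (published grouping; open points have another label; red bars are medians). S100a8 reaches 332 and 232 CPM in 1 library each of E13.5 nerve and ONL, and Elane is at 25.04 and 27.3 CPM in 2 trigeminal libraries.

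Genes of early granulocyte precursors were concentrated in the trigeminal nerve. Mpo, which encodes myeloperoxidase, stood at 123, 57.2 and 1.14 CPM in the 3 trigeminal libraries and at 1.67, 0, 0.974 and 0 CPM in olfactory nerve (log2 difference −6.52 ± 1.60, SE, adjusted p = 0.0029). Elane, neutrophil elastase, had 695, 757 and 0 counts in the trigeminal libraries, 0 counts in all 12 other E16.5 libraries and 1 count in 2 early libraries. Ctsg, cathepsin G, stood at 23.5, 2.67 and 0.0735 CPM in trigeminal nerve and had 4 counts in all in outer ONL (adjusted p = 0.0086). In each case E16.5_TN1 and E16.5_TN2 held the transcripts and E16.5_TN3 held almost none.

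Prtn3, proteinase 3, stood at 30.3, 15.1 and 2.90 CPM in trigeminal nerve. It was lower in outer ONL by −3.22 ± 0.47 (log2, SE, adjusted p = 3.7e-06) and in olfactory nerve by −1.92 ± 0.44 (SE, adjusted p = 0.0017), the latter lost without E16.5_TN1 (−1.05, adjusted p = 0.11). Of 10 other granulocyte genes 2 were higher in trigeminal than in olfactory nerve, a count near the 10.6% of all genes. Among them was Ms4a3, a gene of granulocyte and monocyte precursors, at 19.7, 4.69 and 0 CPM against 0 in all 4 olfactory libraries. The list of bone-forming cell genes was highest in the same compartment, at 336 to 1084 CPM. Whether neighbouring bone or its marrow entered those pieces was not tested.

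Prtn3 was the exception among early granule genes, since it was counted in every library. It stood at 15.6, 21.5, 12.6 and 13.8 CPM in E11.5 nerve, where Elane and Ctsg had 0 counts and Mpo was at 0, 6.60, 8.34 and 0.226 CPM. It was lower at E13.5 (5.30 to 8.95 CPM), by a log2 difference of −1.16 ± 0.35 (SE, adjusted p = 0.011). It was also lower in E16.5 outer ONL than in nerve (−1.30 ± 0.44, SE, adjusted p = 0.031), a call lost without E16.5_ON1, E16.5_ON4, E16.5_oONL1, E16.5_oONL2 or E16.5_oONL3 (−1.19 to −1.31), and in E16.5 outer ONL than in E13.5 ONL (−1.61 ± 0.43, SE, adjusted p = 0.0029). Prtn3 overlaps Plppr3, a neuronal gene on the opposite strand, and the strand setting of the counting was not given in the sources used here. Plppr3 stood at 238 to 321 CPM in E11.5 nerve, 86.4 to 128 CPM in E13.5 nerve, 23.3 to 63.8 CPM in outer ONL and 20.0 to 24.4 CPM in trigeminal nerve, and its part in the Prtn3 counts was not tested. By label the change from E11.5 to E13.5 nerve was 0.33 (adjusted p = 0.65), and that of the ONL to E16.5 was −3.00 ± 0.49 (SE).

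Co-variation across all 31 libraries grouped the members partly as the lists did. On the log scale Csf1r was nearest to Laptm5 (r = 0.966), C1qa to C1qc (0.975), Camp to Ltf (0.949), Hbb-bt to Hbb-bs (0.989) and Hba-x to Hbb-bh1 (0.966). Other nearest pairs crossed the lists: P2ry12 and Adgre1 were nearest to Hbb-bs (0.889 and 0.876), Hba-a1 to Aif1 (0.818) and Alas2 to Laptm5 (0.813). Tmem119 was nearest to Prtn3 (0.568), and the highest value for Sall1 with any member was 0.145. These correlations describe libraries that share groups, depth and, for the adult globins, sequence.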

How the data were processed

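RNA-seq was performed on 31 pieces of laser-microdissected nerve. The authors made cDNA with SMART-seq v4 and Nextera XT libraries and sequenced paired ends on a NextSeq 500; per the submitters' processing notes reads were aligned with TopHat2 2.1.0 to mm10 and counted per gene with HTSeq, and the deposited values are raw counts, not normalized. The strand setting of the counting is not given in the sources used here. One line of the table was empty and held no counts.

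Early libraries were grouped as the published table of group means has them, which differs from GEO's labels for 10 of 31 libraries; the label grouping is given beside it. Counts were tested with edgeR 4.0.16 (R 4.3.3; quasi-likelihood test, TMM scaling, filterByExpr by group) in 1 fit of 31 libraries, with Benjamini-Hochberg adjustment over 19332 genes. Levels are CPM, correlations used log2(CPM + 0.5), and shares of globin counts are descriptions. Differences are given for pairs of gene and comparison called at an adjusted p of 0.05 in either grouping or, as alternatives, in the fit of E16.5 libraries only, and for pathway lists up to 2 called genes with the largest change. A fold against a group at 0 uses 3 counts per library. DESeq2 1.42.0, other scalings, no filter, fits of 2 groups, a replicate block and leaving out each library were alternatives.

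The members and lists were chosen with earlier results of these data known. Same-numbered outer ONL and olfactory nerve libraries at E16.5 deviated together (r = 0.158, 0.229, 0.233 and 0.348 over genes), so their block is reported. Depth was 3512627 to 36705535 counts per library, and single counts carry counting error. The tests were tested on simulated data with known changes. One result on another red cell gene is not reported here.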

Additional observations from a re-analysis of the deposited data

Results flagged for a closer look

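Of 184 levels, each 1 member or 1 embryonic globin share in 1 group of 4 to 7 libraries, 13 had a library far from the others by Dixon's test, where chance gives about 1 in 20. Neutrophil genes and Mpo, an enzyme of granulocyte precursors, made up 8 of them. In the library labelled E13.5_ONL1, S100a8 was at 332 CPM, S100a9 at 285 CPM, Camp at 78.4 CPM and Ltf at 107 CPM, against at most 92.7, 92.7, 19.2 and 21.9 CPM in the other 6 libraries of E13.5 nerve. In the library labelled E11.5_ON3, S100a8 was at 232 CPM, S100a9 at 167 CPM and Camp at 36.0 CPM, against at most 37.6, 44.2 and 9.13 CPM in the other 4 of E13.5 ONL. Mpo was at 7.68 CPM in the library labelled E11.5_ON4 and at most 0.277 CPM in the others of that group.

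Globins stood apart in 2 libraries. In E16.5_ON1, Hba-a1 was at 3812 CPM and Hbb-bs at 3219 CPM, against at most 1257 and 1105 CPM in the other 3 olfactory nerve libraries. In E13.5_ON6, Hba-a2 was at 0.888 CPM, against 259.7 to 376 CPM in the other 6. Ptprc was at 0.628 CPM in E16.5_iONL3, against 3.19 to 3.50 CPM, and Itgam at 1.49 CPM in the library labelled E13.5_ONL3, against at most 0.194 CPM.

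The step from nerve to ONL differed between E16.5 and E13.5 for Lyve1 (−4.08), Sall1 (−3.50) and Ptprc (−2.003) on the log2 scale, each past the threshold in the edgeR interaction test. By label the same terms were 1.00, 2.92 and −1.68, none past the threshold (adjusted p = 0.71, 0.096 and 0.13).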

How the results depend on the processing

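The grouping of early libraries mattered most. By label, 14 of 69 named differences changed sign: in E13.5 ONL against nerve Tmem119 (1.14), Sall1 (−2.28) and Lyve1 (−2.69); in E13.5 against E11.5 nerve Hba-x (0.47), Hbb-bh1 (0.72), Mrc1 (−0.34), Tmem119 (2.54), Prtn3 (0.33), S100a8 (−1.13) and S100a9 (−0.78); in outer ONL at E16.5 against ONL at E13.5 Tmem119 (−2.02) and Sall1 (0.98); and in the interaction Sall1 (2.92) and Lyve1 (1.00). Called members by label numbered 2 in outer ONL against nerve, 3 in olfactory against trigeminal nerve, 5 in E13.5 ONL against nerve and 2 in E13.5 against E11.5 nerve, and the mean embryonic shares were 87.0% (beta) and 27.5% (alpha) for E11.5 nerve and 96.7% and 61.5% for E13.5 ONL. Fitting only the 2 groups compared gave 13 called members for outer ONL against nerve, 27 for inner ONL against nerve, 12 for inner against outer ONL, 10 for olfactory against trigeminal nerve and 14 for outer ONL against trigeminal nerve; the replicate block on top gave 17, 28, 14, 6 and 11. Numbers paired libraries by the rule only in the first of these. Fitting E16.5 libraries only gave 18, 24, 9, 10 and 15. Without the libraries labelled E13.5_ONL1 and E11.5_ON3, 8 members were called in the ONL between E13.5 and E16.5. Leaving out 1 library at a time gave 2 to 5 called members for outer ONL against nerve, 9 to 17 for inner ONL against nerve, 3 to 6 for olfactory against trigeminal nerve and 7 to 14 for the ONL between stages. The causes were not tested. Scaling by size factors or by total count left all 69 named differences on the same side of the threshold, DESeq2 66 and no filter 68. Without a filter, and in fits of fewer groups, other sets of genes were adjusted over.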
